A study of Mus musculus with 6 samples.

Results

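IAPEY families are endogenous retrovirus families of the mouse, and were chosen as the repeat families whose name starts with IAPEY in a table of RNA-seq read counts from testis. They make up 10 of the 363 families in that table, with 4 internal entries (IAPEYI, IAPEY3_I, IAPEY4_I and IAPEY5_I) and 6 LTR entries (IAPEY_LTR, IAPEY2_LTR, IAPEY3_LTR, IAPEY3C_LTR, IAPEY4_LTR and IAPEY5_LTR). Total RNA was sequenced from 3 wild-type and 3 Spocd1 ΔSPIN1 testes at postnatal day 20 (P20) to ask which transposons change in expression when SPOCD1 cannot bind the chromatin reader SPIN1. Both groups were on a mixed B6CBAF1/Crl; C57BL/6N background, and the mutants (genotype Spocd1 dSpin/dSpin) were homozygous for an allele with alanine substitutions in the part of SPOCD1 that contacts SPIN1. All mutants descend from 1 edited founder, with later crosses to C57BL/6N, so variants linked to the allele cannot be told apart from the substitutions. Each library was made from 1 whole testis and no germ cells were sorted. The labels do not name the animals, and p-values therefore measure the spread between these samples.

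Intracisternal A particle (IAP) elements belong to the ERVK class of endogenous retroviruses and are among the youngest and most active transposons of the mouse. A full copy holds an internal part, which encodes retroviral proteins, between a pair of long terminal repeats (LTRs), and transcription starts in the LTR. Recombination between the LTRs of a copy leaves a solitary LTR, so the internal part and the LTR of a family need not share the same copies in the genome. IAPE elements are IAPs with an envelope gene, and copies of them have been amplified on the mouse Y chromosome. Most IAP copies are kept silent by DNA methylation, which in male germ cells is set before birth, in part with the help of small RNAs (piRNAs) and of nuclear proteins such as SPOCD1.

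Reads counted on repeat families totalled 416517, 369598 and 499166 in wild-type replicates 1 to 3, and 842018, 1013224 and 918487 in Spocd1 ΔSPIN1 replicates 1 to 3. The summed IAPEY count was 10680, 10215 and 10544 reads in wild type and 21893, 17996 and 14162 reads in the Spocd1 ΔSPIN1 testes. Counts are per family, with no genomic position, and how reads that match several families were assigned is not given in the sources used here, so counts of families with similar sequences are uncertain. No gene is listed in the table, so neither the genotype nor markers of testis cell types could be checked. Levels are given as CPM, the read count in proportion to the library size, after scaling by edgeR's TMM method (trimmed mean of M-values), which takes most families as unchanged. Scaling by total counts instead moved every tested family by between −1.04 and −0.99 on the log2 scale, and the median over the 292 tested families from −0.039 to −1.05. Fold changes are relative to the former unless total counts are named. Comparisons within a library do not depend on this choice.

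Spocd1 ΔSPIN1 replicate 1 stood apart from replicates 2 and 3. The chi-square of its counts over all families, per degree of freedom, was 340 against replicate 2 and 291 against replicate 3. It was 12.1 between Spocd1 ΔSPIN1 replicates 2 and 3, and between 8.64 and 12.1 within wild type. Chi-square gives the most weight to families with many reads. Among these, L1MdA_I was lower in replicate 1, with 18652 reads against 87923 in replicate 2 and 76973 in replicate 3. The SD over tested families of the log2 ratio between libraries showed a smaller gap, at 0.45 and 0.52 between replicate 1 and replicates 2 and 3, 0.33 between the latter, and 0.29 to 0.39 within wild type. Replicate 1 had the highest TMM-scaled CPM of its genotype in 8 of the 10 IAPEY families (80%), against 112 of all 292 tested families (38.4%). The median IAPEY family was 0.46 higher on the log2 scale there than in either replicate 2 or replicate 3. Among wild-type libraries, replicate 2 was the highest in 9 of the 10 IAPEY families, against 127 of the 292 (43.5%). Several results that draw on Spocd1 ΔSPIN1 replicate 1 are also given without it.

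All 10 IAPEY families passed the filter on low counts, and 3 of them were called different between wild type and Spocd1 ΔSPIN1 by the quasi-likelihood test of edgeR, with Bonferroni adjustment over all 292 tested families (threshold 0.05). The internal entries IAPEY5_I and IAPEYI were higher in the Spocd1 ΔSPIN1 testes, under total counts as well, though with that scaling neither passed edgeR's test after Bonferroni adjustment. At an unadjusted p under 0.05 with total counts, 2 internal entries were higher and 2 lower, against 13 higher (4.45%) and 253 lower (86.6%) of all tested families, whose median was then −1.05. With DESeq2 and its own scaling, IAPEY5_I and IAPEYI both passed. The LTR entry IAPEY3_LTR was lower, and passed with both scalings. Over all tested families, the same test called 24 (8.22%), with 16 higher (5.48%) and 8 lower (2.74%), and between 14 and 28 with 1 library left out. With total counts it called 4 higher (1.37%) and 168 lower (57.5%). At an unadjusted p under 0.05 there were 7 IAPEY families, 6 higher and 1 lower, against 124 (42.5%) of all tested, 62 higher (21.2%) and 62 lower (21.2%). The 6 higher became 3, of which 2 were internal, when Spocd1 ΔSPIN1 replicate 1, wild-type replicate 1 or wild-type replicate 3 was left out. TMM-scaled values of the groups did not overlap in 6 IAPEY families. Of these, 5 were higher in every Spocd1 ΔSPIN1 library than in any wild-type library (20.9% of all tested families) and 1 was lower (25%). The median log2 fold change was 0.44 over the 10 families, with 9 of them above 0 (127 of all 292), but −0.57 with total counts, with 2 above 0 (15 of all 292). Without Spocd1 ΔSPIN1 replicate 1 it was 0.24, with 8 above 0 (131 of the 297 families then tested). Adult males homozygous for this allele have a spermatogenic arrest, and whole testes were sequenced here at P20. Fewer cells of a type and less RNA per cell therefore cannot be told apart in any of these differences.

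**Figure D1:**
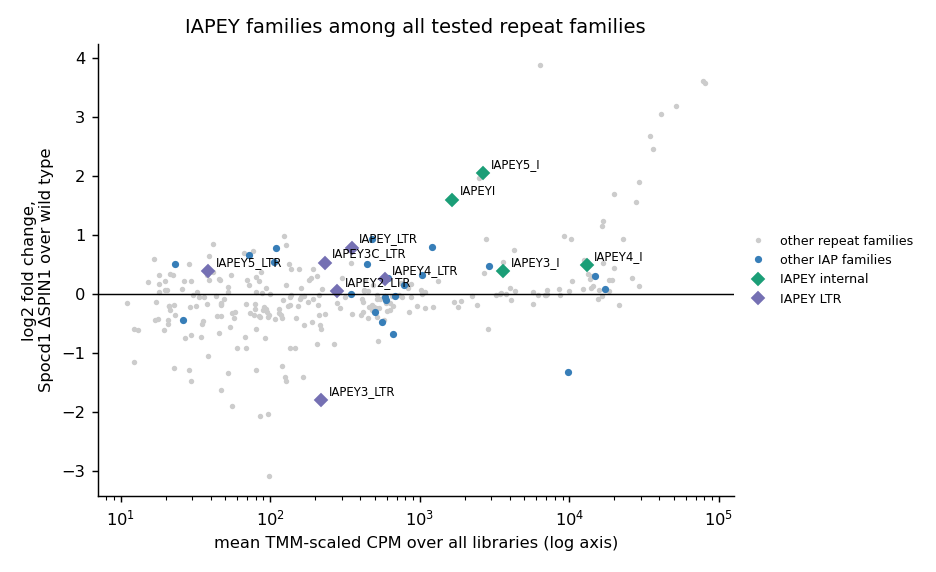
Log2 fold change (Spocd1 ΔSPIN1 over wild type, TMM scaling) of each of the 292 tested repeat families against its mean TMM-scaled CPM over all libraries (log axis), with IAPEY internal entries in green, IAPEY LTR entries in purple and other IAP families in blue. IAPEY5_I (2.04) and IAPEYI (1.58) lie above the other IAPEY families and IAPEY3_LTR (−1.80) below them, and of the 9 IAPEY families above 0 only these 2 internal entries stay above 0 with total counts.

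Of the internal entries, IAPEY5_I had the largest log2 fold change. Its listed sequence has 3574 bases, less than the 7513 to 7680 bases of the other internal entries. IAPEY5_I had 1096, 1084 and 946 CPM in wild-type replicates 1 to 3 and 6497, 3089 and 3246 CPM in the Spocd1 ΔSPIN1 replicates 1 to 3. Every Spocd1 ΔSPIN1 value lay above every wild-type value, and replicate 1 was far above the other mutant libraries. The mean was 1042 ± 83.6 CPM in wild type and 4277 ± 1924 CPM in the Spocd1 ΔSPIN1 testes (SD, n = 3 each). IAPEY5_I rose by 2.04 on the log2 scale (standard error 0.28, 95% interval 1.38 to 2.69, Bonferroni-adjusted p = 0.0311 in edgeR's quasi-likelihood test), and by 1.04 with total counts, which was not past the threshold (adjusted p = 1 in the same edgeR test). Without Spocd1 ΔSPIN1 replicate 1 the log2 fold change was 1.59 (Bonferroni-adjusted p = 7.70e-05 in edgeR). Leaving out wild-type replicate 1, 2 or 3 gave log2 fold changes of 2.08, 2.07 and 1.97 and ended the call (Bonferroni-adjusted p = 0.239, 0.206 and 0.192 in edgeR).

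IAPEYI, the internal entry without a number, had 810, 878 and 786 CPM in wild type and 3063, 2098 and 2252 CPM in the Spocd1 ΔSPIN1 testes. The groups were far apart, the wild-type libraries were close to each other, and Spocd1 ΔSPIN1 replicate 1 was again the highest. The mean was 825 ± 47.8 CPM in wild type and 2471 ± 519 CPM in the Spocd1 ΔSPIN1 testes (SD, n = 3 each). The log2 fold change was 1.58 (standard error 0.14, 95% interval 1.25 to 1.92, Bonferroni-adjusted p = 0.00165 in edgeR's quasi-likelihood test). With total counts it was 0.58 and the call was lost (adjusted p = 1 in edgeR). IAPEYI passed the threshold in all 6 fits that left out 1 library, with a log2 fold change of 1.39 without Spocd1 ΔSPIN1 replicate 1 (Bonferroni-adjusted p = 8.91e-05 in edgeR).

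The remaining internal entries, IAPEY4_I and IAPEY3_I, had the most reads of the IAPEY families in wild type and did not pass the test. IAPEY4_I had 11647, 12939 and 8040 CPM in wild type and 18315, 14837 and 12448 CPM in the Spocd1 ΔSPIN1 testes. The groups overlapped, since Spocd1 ΔSPIN1 replicate 3 lay below wild-type replicate 2. Its log2 fold change was 0.48 (95% interval 0.013 to 0.95, Bonferroni-adjusted p = 1 in edgeR), with 0.32 in the absence of Spocd1 ΔSPIN1 replicate 1, 0.31 in that of wild-type replicate 3 and −0.51 with total counts. IAPEY3_I had 2725, 3456 and 3230 CPM in wild type and 5192, 3499 and 3582 CPM in the Spocd1 ΔSPIN1 testes. Its groups did not overlap, but Spocd1 ΔSPIN1 replicate 2 was only just above wild-type replicate 2. The log2 fold change was 0.38 (95% interval 0.00091 to 0.77, Bonferroni-adjusted p = 1 in edgeR), with 0.17 in the absence of Spocd1 ΔSPIN1 replicate 1 and −0.62 with total counts. Over the 4 internal entries, the median log2 fold change was 1.03, with 0.85 in the absence of Spocd1 ΔSPIN1 replicate 1 and 0.033 with total counts.

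**Figure D2:**
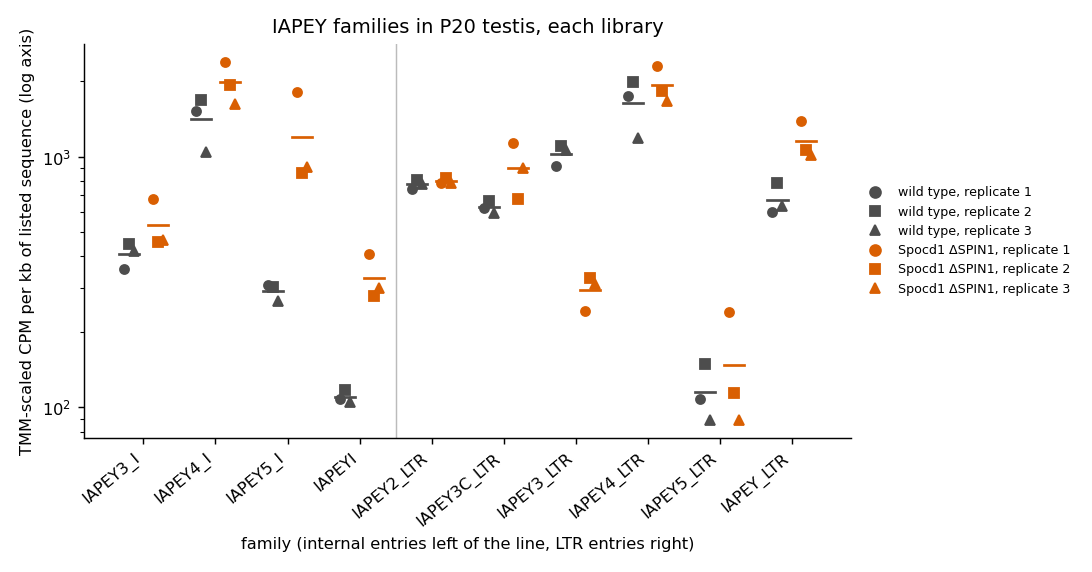
TMM-scaled CPM per kb of listed sequence (log axis) of each IAPEY family in each library, with wild type in grey, Spocd1 ΔSPIN1 in orange, a symbol for each replicate number and a bar at the mean of 3 libraries. IAPEY5_I and IAPEYI lie higher in all 3 Spocd1 ΔSPIN1 libraries (with total counts, log2 fold changes of 1.04 and 0.58) and IAPEY3_LTR lies lower in all 3, while IAPEY2_LTR has nearly the same mean in both genotypes (775 and 798 CPM per kb, a log2 fold change of −0.97 with total counts).

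Among the LTR entries, IAPEY3_LTR was the only one with a log2 fold change below 0 under TMM scaling. It had 182, 185 and 257 reads in wild type and 50, 78 and 63 reads in the Spocd1 ΔSPIN1 testes, although the Spocd1 ΔSPIN1 libraries held more reads in total. Scaled by TMM, these were 304, 366 and 353 CPM in wild type and 80.2, 109 and 103 CPM in the Spocd1 ΔSPIN1 testes. The groups were far apart, and Spocd1 ΔSPIN1 replicate 1, the highest mutant library for most IAPEY families, was the lowest here. IAPEY3_LTR fell by 1.80 on the log2 scale, from 341 ± 32.4 to 97.4 ± 15.2 CPM (SD, n = 3 each, standard error 0.13, Bonferroni-adjusted p = 0.00038 in edgeR's quasi-likelihood test). It passed in all 6 fits that left out 1 library, with log2 fold changes between −1.90 and −1.69. The counting error at its lowest count of 50 reads was 14.1%, and covers counting only, because reads copied by PCR are not independent molecules.

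IAPEY_LTR had 231, 303 and 244 CPM in wild type and 533, 408 and 391 CPM in the Spocd1 ΔSPIN1 testes. Its groups did not overlap. The log2 fold change was 0.78 (standard error 0.15, 95% interval 0.43 to 1.13) and −0.22 with total counts, and it did not pass the threshold (Bonferroni-adjusted p = 0.271 in edgeR's quasi-likelihood test). The threshold was passed in DESeq2 (Bonferroni-adjusted p = 0.0063), in edgeR with TMM factors from families not named L1 (Bonferroni-adjusted p = 0.0492), and in edgeR with Benjamini-Hochberg in place of Bonferroni adjustment (adjusted p = 0.00578).

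The other 4 LTR entries did not pass the test, each with a Bonferroni-adjusted p of 1 in edgeR. IAPEY3C_LTR had between 181 and 202 CPM in wild type and between 207 and 345 CPM in the Spocd1 ΔSPIN1 testes, without overlap, and a log2 fold change of 0.53 (0.32 without Spocd1 ΔSPIN1 replicate 1, −0.48 with total counts). IAPEY4_LTR ranged from 386 to 649 CPM in wild type and from 543 to 753 CPM in the Spocd1 ΔSPIN1 testes, with a log2 fold change of 0.25 (−0.76 with total counts). Its value was 0.054 without wild-type replicate 3, 0.41 without wild-type replicate 2 and 0.093 without Spocd1 ΔSPIN1 replicate 1. For IAPEY2_LTR the ranges were 266 to 287 CPM and 281 to 292 CPM, which overlapped and were narrow. Its log2 fold change was 0.043 (−0.97 with total counts) with a 95% interval of −0.13 to 0.22, and between 0.019 (without wild-type replicate 1) and 0.075 (without Spocd1 ΔSPIN1 replicate 3) with 1 library left out. With total counts it passed as lower (Bonferroni-adjusted p = 0.00104 in edgeR), as did 168 of the 292 tested families, with a median of −1.05 over all of them. IAPEY5_LTR was the least counted, with 19, 22 and 19 reads in wild type and 44, 24 and 16 reads in the Spocd1 ΔSPIN1 testes. Its log2 fold change of 0.39 rested on Spocd1 ΔSPIN1 replicate 1, and was −0.14 without it and −0.62 with total counts. Leaving out another library gave values between 0.21 (without wild-type replicate 3) and 0.66 (without Spocd1 ΔSPIN1 replicate 3). The 95% interval reached from −0.54 to 1.31, and the counting error at 16 reads was 25.0%. Over the 6 LTR entries the median log2 fold change was 0.32, but −0.69 with total counts, under which 0 of the 6 were above 0. It was 0.068 without Spocd1 ΔSPIN1 replicate 1, 0.13 without wild-type replicate 3 and 0.49 without wild-type replicate 2.

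**Figure D3:**
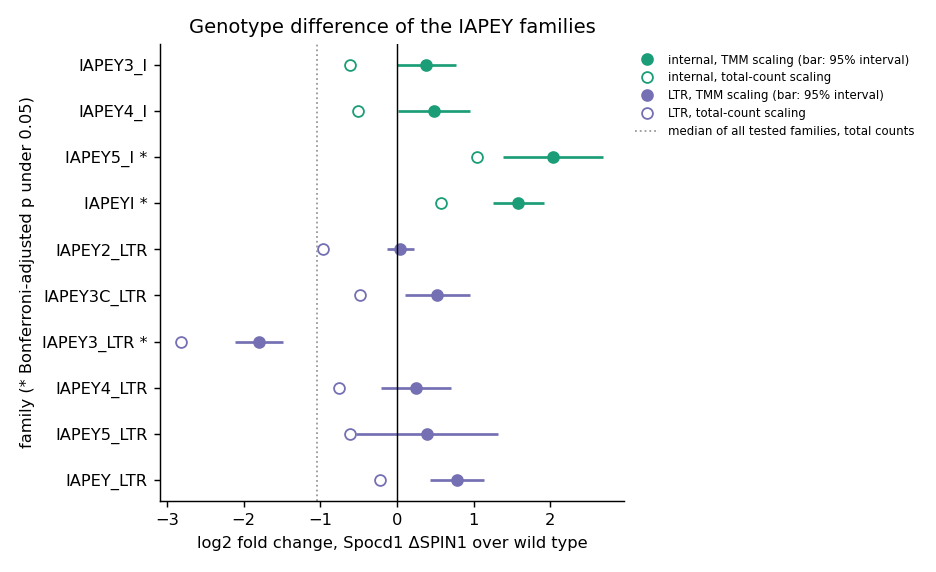
Log2 fold change (Spocd1 ΔSPIN1 over wild type, n = 3 each) of each IAPEY family with TMM scaling (filled points, bars for the 95% interval) and with total counts (open points), with internal entries in green, LTR entries in purple and the dotted line at the median of all tested families with total counts (−1.05). With total counts 7 of the 10 families change direction, IAPEY5_I (1.04) and IAPEYI (0.58) stay above 0, and IAPEY3_LTR stays below it (−2.82).

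Internal entries were then set against LTR entries inside each library, a comparison that needs no scaling. The summed internal count was 10.2, 9.93 and 8.86 times the summed LTR count in wild type, and 16.0, 14.3 and 13.3 times in the Spocd1 ΔSPIN1 testes. Each Spocd1 ΔSPIN1 library thus had a higher ratio than each wild-type library. On the log2 scale the ratio was 3.27 ± 0.11 in wild type and 3.86 ± 0.14 in the Spocd1 ΔSPIN1 testes (SD, n = 3 each), a difference of 0.59. Without Spocd1 ΔSPIN1 replicate 1 this difference was 0.52. When each family had equal weight, as the mean log2 CPM of internal minus that of LTR entries, the difference was 1.09. Internal entries also have the longer sequences. With summed counts divided by summed lengths, the log2 ratio was −0.46 ± 0.11 in wild type and 0.13 ± 0.14 in the Spocd1 ΔSPIN1 testes. With the CPM per kb of each family summed instead, a way chosen after seeing the data, it was −1.13 ± 0.098 and −0.39 ± 0.17, so which kind of entry had the higher level per kb in the mutant depended on how families were summed. By this sum, LTR entries had 4856 ± 587 and internal entries 2227 ± 363 CPM per kb in wild type, and 5227 ± 753 and 4039 ± 1088 CPM per kb in the Spocd1 ΔSPIN1 testes (SD, n = 3 each). The LTR entries took 9.40% ± 0.66 of the IAPEY reads in wild type and 6.46% ± 0.56 in the Spocd1 ΔSPIN1 testes.

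An internal and an LTR entry share a number in 3 subfamilies, and the ratio of internal to LTR counts was higher in all 3 Spocd1 ΔSPIN1 libraries than in any wild-type library in each of them. Such separation is common for single families, since 20.9% of all tested families were higher and 25% lower without overlap of the groups. How often ratios of other pairs of families separate the genotypes was not tested. The log2 ratio of IAPEY3_I to IAPEY3_LTR was 3.16, 3.24 and 3.19 in wild type and 6.00, 4.99 and 5.11 in the Spocd1 ΔSPIN1 testes. IAPEY3_I thus had between 8.95 and 9.44 times the count of IAPEY3_LTR in wild type, and between 32.1 and 64.7 times in the Spocd1 ΔSPIN1 testes. The wild-type ratios lay close together, and Spocd1 ΔSPIN1 replicate 1 was far above replicates 2 and 3. The mean log2 ratios were 3.20 ± 0.039 and 5.37 ± 0.55 (SD, n = 3 each), a difference of 2.17, and of 1.86 without Spocd1 ΔSPIN1 replicate 1. Per kb, the mean ratio went from 0.397 to 1.90. The entries differed in how they moved, with fitted log2 fold changes of 0.38 for IAPEY3_I (−0.62 with total counts) and −1.80 for IAPEY3_LTR.

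In the IAPEY5 pair, the log2 ratio of internal to LTR counts was 5.07, 4.61 and 5.14 in wild type and 6.51, 6.49 and 6.91 in the Spocd1 ΔSPIN1 testes. The groups did not overlap, and Spocd1 ΔSPIN1 replicate 1, in which both entries had their highest count, lay close to replicate 2. The means were 4.94 ± 0.29 and 6.64 ± 0.24 (SD, n = 3 each), a difference of 1.70. It was 1.76 without Spocd1 ΔSPIN1 replicate 1, and between 1.53 and 1.80 with 1 library left out. The LTR side of the ratio rests on the few reads of IAPEY5_LTR. Per kb, the mean ratio was 2.61 in wild type and 8.42 in the Spocd1 ΔSPIN1 testes.

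The IAPEY4 pair had nearly constant log2 ratios within each genotype, at 4.36, 4.32 and 4.38 in wild type and 4.60, 4.64 and 4.52 in the Spocd1 ΔSPIN1 testes. The groups did not overlap, but the difference was small, with means of 4.35 ± 0.033 and 4.59 ± 0.064 (SD, n = 3 each) that differed by 0.24. Each of these 3 comparisons gave p = 0.1 in an exact two-sided permutation test (0.1 after Benjamini-Hochberg adjustment over the 3), which is the smallest p that 3 libraries against 3 allow, so none could pass a threshold of 0.05. IAPEYI and IAPEY_LTR, which carry no number, had log2 ratios of 1.81, 1.53 and 1.68 in wild type and 2.52, 2.36 and 2.53 in the Spocd1 ΔSPIN1 testes. These groups did not overlap either, and their means differed by 0.79. IAPEY2_LTR and IAPEY3C_LTR have no internal entry of the same name.

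**Figure D4:**
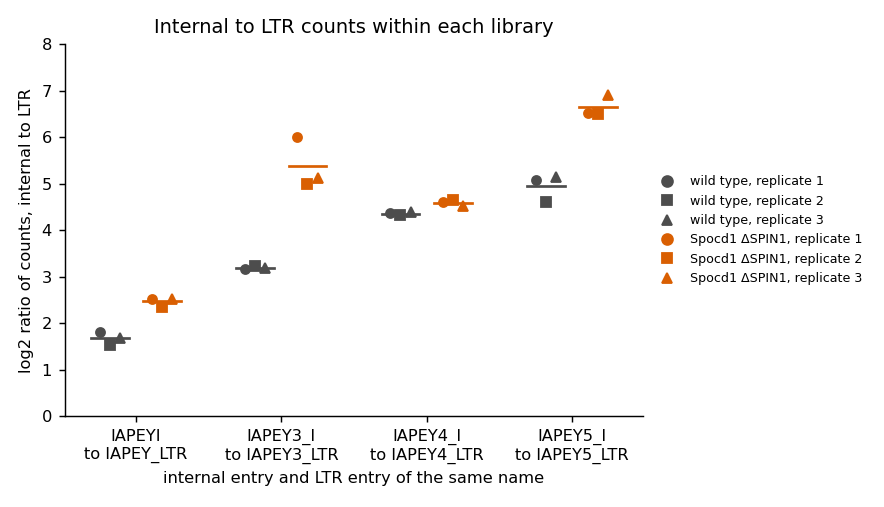
Log2 ratio of internal to LTR counts (with 0.5 added to each count) within each library, for the internal and LTR entries of the same name, with wild type in grey, Spocd1 ΔSPIN1 in orange and a bar at the mean of 3 libraries. All 3 Spocd1 ΔSPIN1 libraries lie above all 3 wild-type libraries in each pair, by a mean of 2.17 for IAPEY3, 1.70 for IAPEY5, 0.79 for the entries without a number and 0.24 for IAPEY4. How often other pairs of families separate in this way was not tested.

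Levels of different families were ordered as TMM-scaled CPM per kb of listed sequence. In wild type, IAPEY4_LTR (1638 ± 413 CPM per kb), IAPEY4_I (1417 ± 331 CPM per kb) and IAPEY3_LTR (1027 ± 97.5 CPM per kb) were the highest, and the ranges of neighbours in this order overlapped. IAPEY2_LTR, IAPEY_LTR and IAPEY3C_LTR followed with 775 ± 29.2, 673 ± 99.2 and 627 ± 34.2 CPM per kb, and their neighbouring ranges also overlapped. IAPEY3_I (408 ± 48.7 CPM per kb) and IAPEY5_I (291 ± 23.4 CPM per kb) were each separate from their neighbours. IAPEY5_LTR (115 ± 30.4 CPM per kb) and IAPEYI (110 ± 6.36 CPM per kb) were the lowest and overlapped.

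In the Spocd1 ΔSPIN1 testes the IAPEY4 entries were again the highest, with 1981 ± 384 CPM per kb for IAPEY4_I and 1931 ± 336 CPM per kb for IAPEY4_LTR. IAPEY5_I, which ranked below IAPEY3_I in wild type, came next with 1197 ± 538 CPM per kb. Its range overlapped with those of IAPEY4_LTR and of IAPEY_LTR (1153 ± 201 CPM per kb), and its place above IAPEY_LTR rested on Spocd1 ΔSPIN1 replicate 1. Over replicates 2 and 3 alone, IAPEY5_I had a mean of 886 CPM per kb, below IAPEY_LTR at 1038 CPM per kb. IAPEY3C_LTR, IAPEY2_LTR and IAPEY3_I had 904 ± 227, 798 ± 18.3 and 533 ± 124 CPM per kb. IAPEYI had 329 ± 69.0 CPM per kb and overlapped with IAPEY3_LTR at 293 ± 45.8 CPM per kb, which had ranked near the top in wild type. Without Spocd1 ΔSPIN1 replicate 1, IAPEY3_LTR had a mean of 319 and IAPEYI of 289 CPM per kb, and IAPEY2_LTR (803 CPM per kb) was above IAPEY3C_LTR (789 CPM per kb). IAPEY5_LTR was the lowest with 148 ± 81.3 CPM per kb.

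As a share of all counted reads, the IAPEY families took 2.56%, 2.76% and 2.11% in wild type and 2.60%, 1.78% and 1.54% in the Spocd1 ΔSPIN1 testes. The groups overlapped, with Spocd1 ΔSPIN1 replicate 1 among the wild-type values. The mean share was 2.48% ± 0.33 in wild type and 1.97% ± 0.56 in the Spocd1 ΔSPIN1 testes (SD, n = 3 each). The difference of −0.51 percentage points was −0.82 without Spocd1 ΔSPIN1 replicate 1 and −0.29 without Spocd1 ΔSPIN1 replicate 3, and its direction depended on the denominator. Of the counts outside families named L1, the IAPEY share was 4.46% ± 0.45 in wild type and 5.73% ± 0.76 in the Spocd1 ΔSPIN1 testes, and the groups did not overlap. IAPEY4_I alone took 61.6% ± 5.25 of the IAPEY reads in wild type and 55.0% ± 3.56 in the Spocd1 ΔSPIN1 testes, so these shares follow IAPEY4_I more than any other family.

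IAPEY families were set beside the 22 other families with IAP in their name. The log2 ratio of the summed IAPEY count to that of the other IAP families was −1.48, −1.55 and −1.95 in wild type and −0.67, −1.04 and −1.11 in the Spocd1 ΔSPIN1 testes. All Spocd1 ΔSPIN1 values were above all wild-type values, with means of −1.66 ± 0.25 and −0.94 ± 0.24 that differed by 0.72 (SD, n = 3 each). Of the other IAP families, 1 of 22 passed edgeR's test (24 of all 292, 8.22%), and of the fits that left out 1 library only that without Spocd1 ΔSPIN1 replicate 3 called any. At an unadjusted p under 0.05 in edgeR, 10 were higher and 4 lower (62 and 62 of all 292). Without overlap of the groups, 11 were higher and 4 lower (61 and 73 of all 292). With total counts 11 of the other IAP families passed, and with Benjamini-Hochberg adjustment 12 (172 and 92 of all 292). Their median log2 fold change was 0.21 with 13 above 0 (127 of all 292), but −0.80 with total counts, with 0 above 0 (15 of all 292). Their highest log2 fold changes were those of IAPA_MM (0.92, Bonferroni-adjusted p = 0.104 in edgeR) and IAP5-Mm_I (0.80, Bonferroni-adjusted p = 0.0321 in edgeR), which were −0.082 and −0.21 with total counts. The lowest were those of IAPLTR3_I (−1.33, Bonferroni-adjusted p = 0.128 in edgeR) and of IAPLTR3 (−0.68, Bonferroni-adjusted p = 1 in edgeR). The mean of IAPLTR3_I was 14001 ± 3448 CPM in wild type and 5586 ± 1376 CPM in the Spocd1 ΔSPIN1 testes (SD, n = 3 each), and its part in the summed ratio was not tested. Whether IAPEY families differ from other IAP families was not tested. LTRIAPEY, whose name starts with LTR, was counted among the other IAP families. It was named after its values were seen, had between 9 and 22 reads per library, and a log2 fold change of 0.50 (−0.51 with total counts).

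For each IAPEY family, the repeat family whose count kept the most constant ratio to it over the 6 libraries was found among the tested families outside the IAPEY families. Both genotypes entered this choice, so a similar log2 fold change of the closest family is favoured by the choice itself. The most constant ratio was that of IAPEYI to L1MdTf_III, a LINE1 family (SD of the log2 ratio 0.054, log2 fold change of L1MdTf_III 1.56). IAPEY2_LTR was closest to the LTR MTA_Mm_LTR (SD 0.063), at between 0.0161 and 0.0183 times its count, but RLTR10 was nearly as close (SD 0.064). IAPEY5_I was closest to RLTR10B2, also an LTR (SD 0.078), with a count ratio between 0.956 and 1.11. That ratio includes Spocd1 ΔSPIN1 replicate 1, in which both families were at their highest. For IAPEYI and IAPEY5_I, reads shared with the closest family and separate transcripts that change together cannot be told apart from the counts.

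IAPEY_LTR was closest to IAPA_MM (SD 0.11), whose log2 fold change was 0.92 (−0.082 with total counts). IAPEY3_I was closest to IAPEZI, an internal IAP entry, and nearly as close to LTRIS3 (SD 0.15 for each), and IAPEY3C_LTR to RLTR25_MM (SD 0.16). IAPEY4_I and IAPEY4_LTR were both closest, outside the IAPEY families, to the SINE family B2_Mm1a (SD 0.19 and 0.13), while the SD of the log2 ratio between this pair itself was 0.14. For IAPEY4_I, RLTR6_MM was nearly as close (SD 0.20). IAPEY3_LTR was closest to RLTR30B_MM, an LTR (SD 0.20, log2 fold change −2.06, Bonferroni-adjusted p = 0.000251 in edgeR), a likeness that the choice favours. Its closest IAPEY family was IAPEY2_LTR with an SD of 1.02, and every other IAPEY family had another member at an SD of 0.32 or less. IAPEY5_LTR had the least constant ratio to its closest outside family, LTRIS3 (SD 0.360), and B2_Mm1a was nearly as close (SD 0.365).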

How the data were processed

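The authors deposited raw read counts of 363 repeat families in 6 RNA-seq libraries, and list a sequence length in bases for each. The submitters' processing notes name cutadapt 1.18, Bowtie2 2.4.2 and the build mm10. The reference sequences of the families, the rule for reads with several matches and the strand setting are not given in the sources used here. A row named for the aligner, with 0 reads in every library, was left out. Columns were matched to genotype and replicate by name.

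Counts were fitted with edgeR 4.0.16 under R 4.3.3 (two-sided, functions glmQLFit and glmQLFTest), with filterByExpr by genotype, TMM factors from the 292 tested families and no covariate. Wild-type TMM factors were 1.37 to 1.46, and those of Spocd1 ΔSPIN1 libraries 0.67 to 0.74. P-values were adjusted by Bonferroni over the tested families, with a threshold of 0.05. Standard errors were derived from the F statistic. CPM are counts relative to the TMM-scaled library size, and CPM per kb divide them by the listed length. Ratios of a pair of families used counts plus 0.5, and quoted count ratios were taken without it. Exact permutation tests used scipy 1.17.1.

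Text and figures name every IAPEY family, for each the 1 other tested family with the smallest SD of the log2 count ratio, and the 2 highest and 2 lowest log2 fold changes among other IAP families. Some next closest families with nearly the same SD were also named, as was LTRIAPEY, which was added after its values were seen. Members and lists were chosen with earlier results of these data known. Alternatives were DESeq2 1.42.0 (Wald test), edgeR with DESeq2's size factors, with total counts or with TMM factors from families not named L1, no filter, a minimum of 10 counts in every library, adjustment by Benjamini-Hochberg, the replicate number as a block, each library left out, a share of counts outside families named L1, and other weightings of the internal to LTR ratio. The fits were tested on simulated data.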

Additional observations from a re-analysis of the deposited data

How the results depend on the processing

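Of 140 fits of single IAPEY families under alternatives, 123 kept direction and call, 3 newly passed the threshold, 6 no longer passed and 8 changed direction, of which IAPEY2_LTR with total counts also newly passed (Bonferroni-adjusted p = 0.00104 in edgeR). Total counts moved every family down and turned IAPEY5_LTR (−0.62), IAPEY3C_LTR (−0.48), IAPEY2_LTR (−0.97), IAPEY_LTR (−0.22), IAPEY4_LTR (−0.76), IAPEY3_I (−0.62) and IAPEY4_I (−0.51). Called in edgeR with Bonferroni adjustment were then 0 internal entries (in place of 2), 2 LTR entries (in place of 1) and 172 of all families, 4 higher and 168 lower (in place of 24). LTR entries called were also 2 with DESeq2, with TMM factors from families not named L1 and with Benjamini-Hochberg adjustment, because IAPEY_LTR passed. All families called were 47 with DESeq2, 33 with TMM factors from families not named L1 and 92 with Benjamini-Hochberg adjustment. With the replicate number as a block (replicate block), 1 internal entry and 14 of all families were called, and IAPEY5_I had a log2 fold change of 1.95 (Bonferroni-adjusted p = 0.0605 in edgeR). Deviations of same-numbered libraries from their group means had correlations of 0.078, 0.024 and −0.12. With 3 libraries per genotype these cannot decide whether the numbers pair the samples, and the labels do not say. With each library left out in turn, between 1 and 2 internal entries and between 14 and 28 of all families were called, and IAPEY5_LTR ranged from −0.14 (without Spocd1 ΔSPIN1 replicate 1) to 0.66. The difference in the IAPEY share went from −0.51 percentage points to 1.28 with counts outside families named L1 as denominator, and the internal to LTR difference from 0.59 to 1.09 with equal weight per family and to 0.74 with CPM per kb summed over families, which was chosen after seeing the data. Over the alternatives, the adjusted p in edgeR or DESeq2 was between 7.39e-10 and 1 for IAPEY5_I, between 4.52e-17 and 1 for IAPEYI, between 1.81e-18 and 0.00341 for IAPEY3_LTR and between 0.00578 and 1 for IAPEY_LTR. The cause of these changes was not tested. IAPEY5_LTR had the fewest reads of the IAPEY families, 16 to 44 per library.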
